A study of Homo sapiens with 6 samples.

Results

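PDGFA, PDGFB, PDGFC, EDN1, ANGPTL4 and FGF2 encode secreted factors that tumour cells can use to act on blood vessels and on the cells around them. These 6 genes were taken by symbol, with the levels of all listed transcripts summed per gene in FPKM (fragments per kilobase of transcript, scaled to library size), and all 6 were found among 11359 genes and passed the filter on low values into the 10305 genes tested. The 6 genes and the gene lists below were chosen with earlier results of these data known. The shares called among them, set beside those of all genes, are therefore no test of the sets. RNA was sequenced from CAL-62, an established human anaplastic thyroid cancer line, in 3 libraries of cells carrying a vector and 3 of cells that overexpress the forkhead transcription factor FOXK2. Both groups were grown in the same serum-containing medium. The labels name no drug and leave out whether the overexpressing cells were a clone or a pool. The 3 samples of a group are called biological replicates with no word on how they were kept apart. Each limma p-value rests on the spread among them, moderated by a trend over all genes tested, and on no further cultures. The title of the series places FOXK2 upstream of the angiogenic factor VEGFA; the comparison here asks how other angiogenic factors stood in the same cells.

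PDGF ligands are dimers of A, B or C chains that signal through receptor tyrosine kinases on pericytes, smooth muscle cells and fibroblasts. PDGF-B from endothelial cells recruits pericytes to new vessels, and PDGF-C is secreted in a latent form that proteases such as tissue plasminogen activator cut open. Endothelin-1, the product of EDN1, is a potent vasoconstrictor peptide released from a larger precursor by furin-type proteases and endothelin-converting enzymes. ANGPTL4 is a secreted inhibitor of lipoprotein lipase that is induced by fasting, fatty acids and hypoxia. FGF2, or basic fibroblast growth factor, is a heparin-binding mitogen of endothelial cells that leaves the cell without a signal peptide.

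The sequences below show the stretches in which the described transcripts differ or by which their product is known. Both PDGFA forms share their coding exons 1 to 5, and the shared end of exon 5 is in lower case. Capitals mark the coding bases of exon 6, which in the long form encode the basic C-terminal tail that holds PDGF-A at heparan sulfate of the cell surface and matrix. Capitals in PDGFB likewise mark the coding bases of its exon 6, which encode a comparable basic tail. Exon 2 of EDN1, which encodes the mature endothelin-1 peptide, is given whole. All are from GENCODE 29, 5′ to 3′, for transcripts on chromosomes 7, 22 and 6.
PDGFA long form, ENST00000354513: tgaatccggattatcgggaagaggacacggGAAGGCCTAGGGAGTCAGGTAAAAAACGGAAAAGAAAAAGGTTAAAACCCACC
PDGFA short form, ENST00000402802: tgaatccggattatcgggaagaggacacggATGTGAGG
PDGFB, ENST00000331163: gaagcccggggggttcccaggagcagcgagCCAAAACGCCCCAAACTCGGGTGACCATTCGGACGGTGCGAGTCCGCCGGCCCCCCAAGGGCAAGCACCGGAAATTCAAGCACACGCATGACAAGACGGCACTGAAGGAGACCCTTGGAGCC
EDN1 exon 2, ENST00000379375: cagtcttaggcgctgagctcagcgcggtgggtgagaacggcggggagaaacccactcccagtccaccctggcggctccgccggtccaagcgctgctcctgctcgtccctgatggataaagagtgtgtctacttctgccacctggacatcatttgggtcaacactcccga

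FOXK2 itself, the check of the labels, was at 16.3, 12.5 and 18.8 FPKM in vector cells and at 30.8, 36.2 and 30.1 FPKM in FOXK2 cells (log2 fold change 1.00, limma adjusted p = 0.00525). The summed FPKM per library ran from 335151 to 395782. Vector libraries correlated with each other across genes at 0.975 to 0.979, and the FOXK2 libraries with them at 0.873 to 0.940, FOXK2 replicate 2 being the nearest to vector at 0.931 to 0.940. The fold change also followed the GC content of the transcripts (Spearman correlation -0.587 over 10305 genes, which are not independent replicates), so the GC content and its bin are given beside each member. None of 10 endothelial markers was among the listed transcripts. Of 10 pericyte and fibroblast markers 4 were listed (ACTA2, COL1A1, COL1A2 and DES), and PDGFRB, RGS5, CSPG4, COL3A1, DCN and LUM were not. The 4 summed to 34.7 to 45.6 FPKM in vector and 26.8 to 28.1 FPKM in FOXK2 libraries. Most of the sum was COL1A1, with means of 28.1 and 18.2 FPKM, and COL1A2 and DES were lower too. ACTA2 went the other way, from 4.5 to 6.58 FPKM, with no call (limma adjusted p = 0.0517). It was called higher with the GC and length correction (0.93, limma adjusted p = 0.00887). Of 13 thyroid and epithelial markers 7 were listed, among them PAX8, EPCAM and the keratins, while TG, TSHR, SLC5A5 and NKX2-1 were not listed.

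Of the 6 genes, PDGFB and EDN1 rose, ANGPTL4 fell, and PDGFA, PDGFC and FGF2 had no call. Among all genes tested 17.6% were called higher, 18.7% lower and 36.3% either way (limma, adjusted p under 0.05). For 4 of the 6, PDGFA included, vector and FOXK2 values had no overlap, against 52% of all genes. With a correction of each library's trend on GC content and length, 4 of the 6 were called, FGF2 being added as lower, against 30.2% of all genes. In bulk RNA, fewer cells that express a gene and less RNA per cell cannot be told apart.

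**Figure D1:**
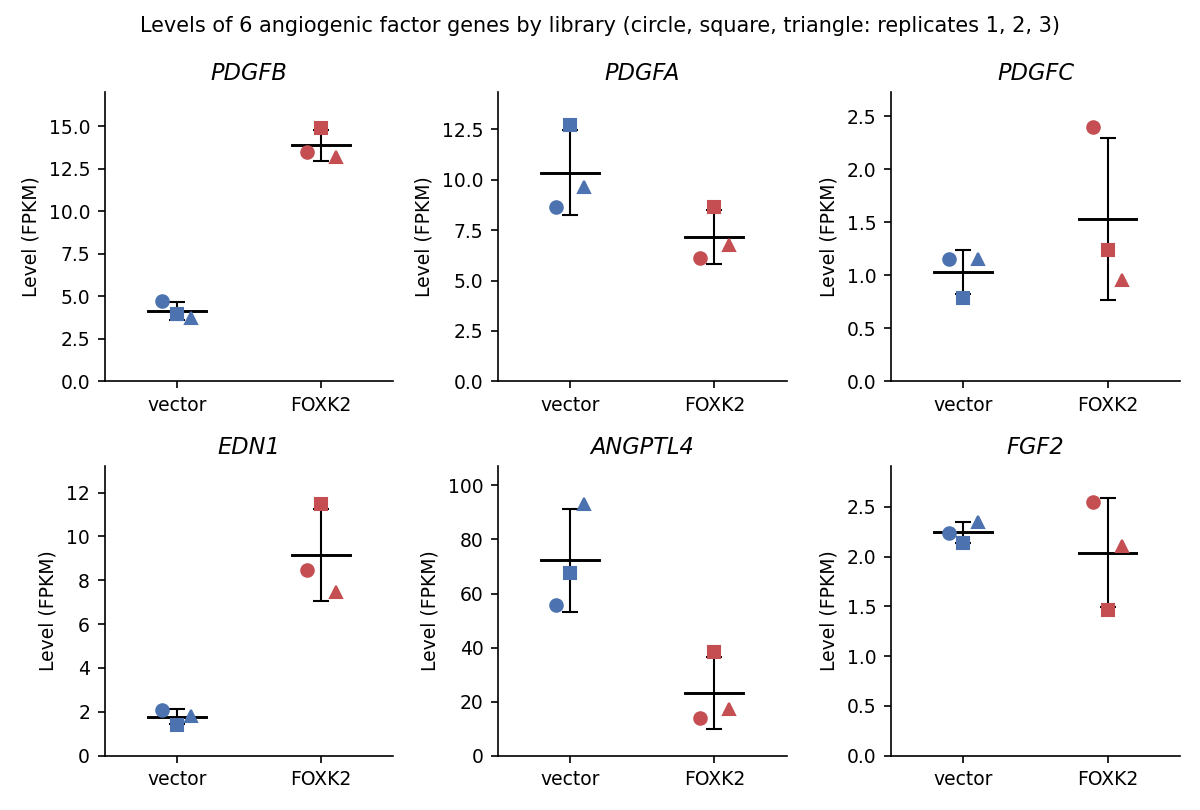
Level in FPKM of each gene (vertical axes, from 0) in the vector (blue) and FOXK2 (red) libraries; symbols mark replicates 1 to 3, and bars the mean and SD of 3 libraries. All FOXK2 libraries lie above all vector libraries for PDGFB and EDN1 and below them for ANGPTL4, and FOXK2 replicate 2 has the highest ANGPTL4 and the lowest FGF2 of its group.

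PDGFB, the B chain, was at 4.75, 3.97 and 3.73 FPKM in the vector libraries and at 13.5, 14.9 and 13.2 FPKM in FOXK2 cells. All 3 FOXK2 libraries were well above all 3 vector libraries, with little spread inside either group. The mean rose 3.34-fold, a log2 fold change of 1.53 (SE 0.14, 95% interval 1.20 to 1.87, limma adjusted p = 0.000673). Only 0.97% of the genes tested had a larger log2 fold change. Its transcript is rich in GC, at 60.6%, and in the bin from 58.9 to 62.2% GC 2.91% of genes were called higher and 37.9% lower, with a median log2 fold change of -0.43. With the GC and length correction the log2 fold change of PDGFB was 1.88 (limma adjusted p = 0.000178). All of its signal was on ENST00000331163, which was also called in the test across transcripts (log2 fold change 1.53, limma adjusted p = 0.00888), where 3.03% of transcripts were called higher and 7.39% either way. An annotated antisense gene, AL031590.1, overlaps the PDGFB locus without sharing exonic bases and was not among the listed transcripts.

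PDGFA, the A chain, was at 8.66, 12.7 and 9.64 FPKM in the vector libraries and at 6.10, 8.64 and 6.75 FPKM in FOXK2 cells. The groups nearly touched, at vector replicate 1 and FOXK2 replicate 2. The log2 fold change of -0.47 (SE 0.19, 95% interval -0.91 to -0.03) did not pass the test (limma adjusted p = 0.0881). Without FOXK2 replicate 2 it was -0.60 and passed (limma adjusted p = 0.0399), and corrected for GC and length it was -0.12 (adjusted p = 0.606). The GC content of PDGFA is 56.3%, and in its bin, from 56 to 58.9%, 5.53% of genes were called higher and 36.7% lower, with a median log2 fold change of -0.35.

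The PDGFA sum is made up of a long and a short form. The long form, whose exon 6 is shown above, was at 3.67, 9.38 and 5.39 FPKM in vector libraries and at 0.788, 3.92 and 0 FPKM in FOXK2 libraries. FOXK2 replicate 2 thus overlapped the vector range, and replicate 3 was listed at 0. The short form was at 4.99, 3.37 and 4.24 FPKM in vector libraries and at 5.32, 4.72 and 6.75 FPKM in FOXK2 libraries, again with overlapping ranges. The long form held 42.3, 73.6 and 56.0% of the sum in vector libraries and 12.9, 45.4 and 0% in FOXK2 libraries. This difference had an exact permutation p of 0.2 (two-sided, smallest possible 0.1). Neither form was called across transcripts (limma adjusted p = 0.147 for the long and 0.331 for the short form). The long form has a GC content of 60.9% and the short form of 52.7%. Corrected for GC and length, the log2 fold change was -1.27 for the long form and 0.44 for the short form, again with no call (limma adjusted p = 0.256 and 0.24).

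PDGFC was the least expressed of the ligands, at 1.15, 0.790 and 1.15 FPKM in vector libraries and 2.40, 1.24 and 0.954 FPKM in FOXK2 libraries. FOXK2 replicate 1 was the highest library by far, and replicate 3 lay inside the vector range. The log2 fold change was 0.28 (95% interval -0.25 to 0.82, limma adjusted p = 0.352), and -0.20 after correction for GC and length (adjusted p = 0.526). Its GC content is 40.5%, in the bin from 39.4 to 41.8%, where 34.8% of genes were called higher, 3.4% lower and the median was 0.44, above the value of PDGFC.

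The share of PDGFB in the sum of the PDGF chains separated the groups without overlap. PDGFB made up 32.6, 22.7 and 25.7% of the summed PDGFA, PDGFB and PDGFC in vector libraries and 61.4, 60.1 and 63.1% in FOXK2 libraries. The log2 ratio of PDGFB to PDGFA was -1.31 ± 0.412 in vector and 0.966 ± 0.181 in FOXK2 cells (SD, n = 3; exact permutation p = 0.1, two-sided, the smallest possible). PDGFA was the most abundant chain in every vector library, and PDGFB in every FOXK2 library. The log2 ratio of PDGFC to PDGFA was -3.33 ± 0.593 and -2.32 ± 0.849 (exact permutation p = 0.1). Neither ratio is corrected for GC content, which is 40.5% for PDGFC, 56.3% for PDGFA and 60.6% for PDGFB. With the GC and length correction the log2 fold changes of PDGFC and PDGFA were close, at -0.20 and -0.12, and that of PDGFB was 1.88.

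EDN1 was at 2.1, 1.42 and 1.83 FPKM in the vector libraries and at 8.46, 11.5 and 7.46 FPKM in FOXK2 cells. The lowest FOXK2 library exceeded the highest vector library by a wide margin. The mean rose 5.13-fold, the largest fold of the 6 genes, with a log2 fold change of 1.85 (SE 0.19, 95% interval 1.4 to 2.30, limma adjusted p = 0.000923). Of the genes tested 39 had a larger log2 fold change. The listed transcript ENST00000379375 was called on its own (limma adjusted p = 0.0132). Its GC content is 45.1%, in a bin with 25.5% of genes called higher, 6.7% lower and a median of 0.24, and with the correction the log2 fold change was 1.64 (limma adjusted p = 0.00224).

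ANGPTL4 was the most abundant of the 6 genes in vector cells, at 55.9, 67.7 and 93.2 FPKM, and stood at 14.1, 38.3 and 17.1 FPKM in FOXK2 cells. FOXK2 replicate 2, the library nearest to vector across all genes, held more than the sum of the other two, yet lay below every vector library. The mean fell to 0.321 of the vector level, a log2 fold change of -1.70 (SE 0.36, 95% interval -2.52 to -0.87, limma adjusted p = 0.0107). Without FOXK2 replicate 2 the log2 fold change was -2.11 (limma adjusted p = 0.00188). Its GC content of 63.5% lies in the highest bin, where 44.1% of genes were called lower and the median was -0.53. With the GC and length correction the log2 fold change was -1.13 (limma adjusted p = 0.0239). The GC slope, in log2 units per 10 points of GC content, was 0.158, 0.163 and 0.3 in vector libraries 1 to 3. In FOXK2 libraries 1 to 3 it was -0.378, -0.0128 and -0.231. The 6 ANGPTL4 values stand in the same order as these slopes, and whether the slopes shape the replicate pattern was not tested. The main form ENST00000301455, of 7 exons, held 76.5% ± 6.57 of the sum in vector and 75.3% ± 2.82 in FOXK2 cells (SD, n = 3; exact permutation p = 0.8). A form of 6 exons, ENST00000393962, was at 11.6, 11.6 and 13.6 FPKM in vector and 3.33, 9.45 and 3.12 FPKM in FOXK2 libraries. The short ENST00000594875 was at 5.61, 3.05 and 3.13 FPKM in vector and 0, 1.24 and 0.752 FPKM in FOXK2 libraries. RAB11B-AS1, annotated on the opposite strand, shares exonic bases with ANGPTL4 and had no listed transcript; since use of strand in assigning reads is not stated, reads from it cannot be told apart from those of ANGPTL4. None of the 3 ANGPTL4 forms passed across transcripts, where 4.36% were called lower (limma adjusted p = 0.0582, 0.108 and 0.0572).

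FGF2 was at 2.24, 2.14 and 2.35 FPKM in the vector libraries and at 2.55, 1.46 and 2.11 FPKM in FOXK2 cells. The FOXK2 values spanned the vector values, with replicate 1 above them and replicates 2 and 3 below. The log2 fold change was -0.11 (95% interval -0.52 to 0.30, limma adjusted p = 0.649), and 0.04 without FOXK2 replicate 2 (adjusted p = 0.859). Corrected for GC and length it was -0.61 and called (limma adjusted p = 0.0199): the GC content of FGF2 is 39.8%, and 34.8% of genes in its bin were called higher, with a median of 0.44. Of its 2 forms, ENST00000608478, with 465 annotated coding bases, held 72.7% ± 4.36 and 69.1% ± 3.45 of the sum (SD, n = 3; exact permutation p = 0.4). ENST00000264498, with 864 coding bases from an upstream start that yields the nuclear forms of the protein, made up the rest. NUDT6, which lies on the opposite strand and shares exonic bases with FGF2, was at 5.78, 3.63 and 6.89 FPKM in vector and 2.34, 2.01 and 3.51 FPKM in FOXK2 libraries (log2 fold change -0.82, limma adjusted p = 0.0360). The library kit marks strand, but use of strand in assigning reads is not stated, so the split between FGF2 and NUDT6 is uncertain.

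**Figure D2:**
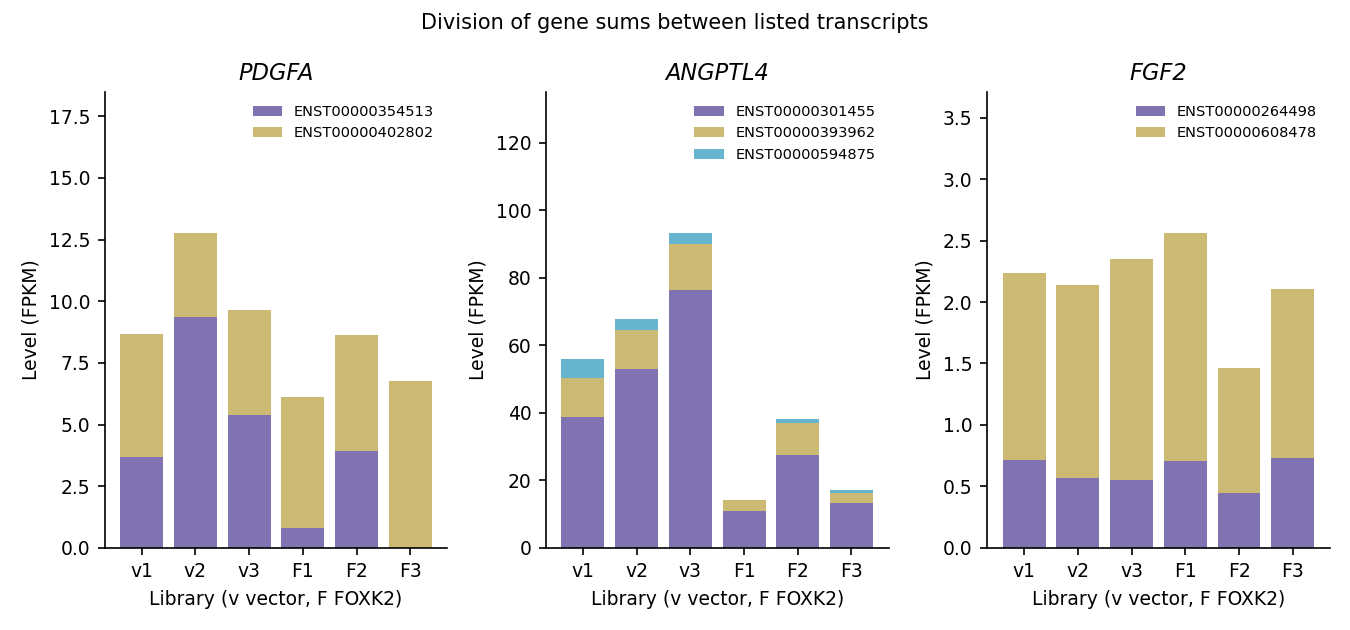
Stacked bars give the FPKM of each listed transcript of PDGFA, ANGPTL4 and FGF2 in vector (v1 to v3) and FOXK2 (F1 to F3) libraries. The long PDGFA form ENST00000354513 takes 42.3 to 73.6% of the bar in vector libraries and 0 to 45.4% in FOXK2 libraries, while the main ANGPTL4 form takes 76.5% of the mean vector bar and 75.3% of the FOXK2 bar.

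In vector cells the order of levels per transcript length was ANGPTL4, PDGFA, PDGFB, FGF2, EDN1 and PDGFC, and the ranges of neighbours did not overlap. In FOXK2 cells it was ANGPTL4, PDGFB, EDN1, PDGFA, FGF2 and PDGFC. There ANGPTL4 (14.1 to 38.3 FPKM) overlapped PDGFB (13.2 to 14.9 FPKM), EDN1 (7.46 to 11.5 FPKM) overlapped PDGFA (6.10 to 8.64 FPKM), and FGF2 overlapped PDGFC.

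**Figure D3:**
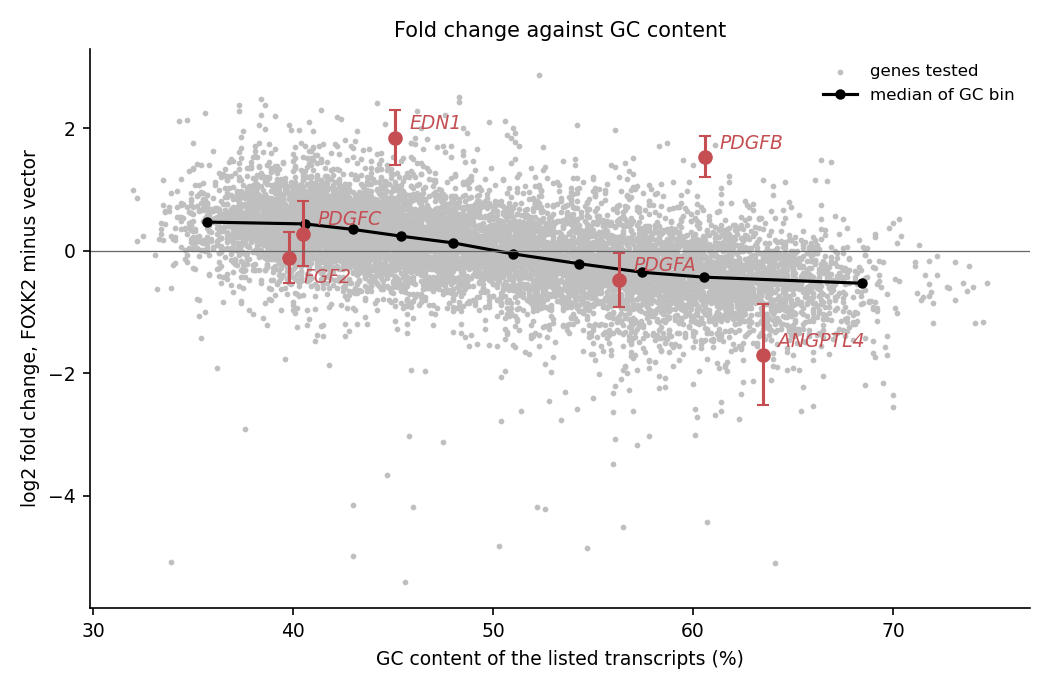
Each grey point is a gene tested, with the GC content of its listed transcripts in percent (horizontal axis) and its log2 fold change, FOXK2 minus vector (vertical axis); black points are medians of 10 GC bins and red points the 6 genes with 95% intervals. PDGFB, at 60.6% GC, stands at 1.53 where its bin's median is -0.43, while PDGFA lies near its bin's median of -0.35.

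Promoter windows were shown for the called genes that have one at a listed start, since the overexpressed protein binds DNA. Of the 6 genes 4 had windows in the RefSeq table (GRCh38.p14, 250 bases before to 50 after the start), and 3 had one within 10 bases of the start of a listed transcript. Capitals mark matches on either strand to the forkhead core TGTTTAC, the hypoxia response core ACGTG, the AP-1 motif TGANTCA and the GATA motif AGATAA.
EDN1, chr6:12290111-12290410, plus strand: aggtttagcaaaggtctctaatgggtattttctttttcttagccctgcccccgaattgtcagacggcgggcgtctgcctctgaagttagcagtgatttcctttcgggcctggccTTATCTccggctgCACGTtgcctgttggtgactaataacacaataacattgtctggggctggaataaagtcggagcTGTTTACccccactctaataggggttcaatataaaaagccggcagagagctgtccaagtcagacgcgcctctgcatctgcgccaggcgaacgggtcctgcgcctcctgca
ANGPTL4, chr19:8363905-8364204, plus strand: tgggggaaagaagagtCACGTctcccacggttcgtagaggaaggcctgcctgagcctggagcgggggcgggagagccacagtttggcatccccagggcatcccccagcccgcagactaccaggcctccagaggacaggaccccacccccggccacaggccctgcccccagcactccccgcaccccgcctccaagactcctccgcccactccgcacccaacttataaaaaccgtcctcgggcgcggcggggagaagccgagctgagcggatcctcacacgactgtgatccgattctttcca
The EDN1 window held the forkhead core from position -60, the hypoxia response core from -123 and the GATA motif from -136, counted from the start of transcription. The ANGPTL4 window held the hypoxia response core from -234, and the FGF2 window held none of the 4 motifs. Of 35116 windows in the table, 3.42% held the forkhead core, 21.4% the hypoxia response core, 7.71% the AP-1 motif and 10.3% the GATA motif. No binding was measured in these libraries.

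Among the other PDGF genes, PDGFD and the receptor genes PDGFRA and PDGFRB had no listed transcript and could not be examined. PDGFRL, a receptor-like gene, had no call (log2 fold change -0.14, limma adjusted p = 0.529). Of 16 tested genes for PDGF processing and receptor adaptors 5 rose and 6 fell, 68.8% in all against 36.3% of all genes, and the median log2 fold change was 0.01, as over all genes. PLAT, which encodes tissue plasminogen activator, rose from 22.2 ± 2.36 to 44.1 ± 6.38 FPKM (SD, n = 3; 0.95 on the log2 scale, limma adjusted p = 0.00404). FURIN, whose protease matures PDGF chains and the endothelin precursor, fell from 82.3 ± 3.12 to 49.6 ± 1.70 FPKM (-0.72, limma adjusted p = 0.0030). The adaptor gene SHC1 fell from 131 ± 50.5 to 42.7 ± 6.49 FPKM (-1.52, adjusted p = 0.00887), its vector libraries spreading from 72.8 to 166 FPKM. PIK3R1, a regulatory subunit of PI3-kinase, rose from 0.588 ± 0.362 to 3.61 ± 1.44 FPKM (1.52, adjusted p = 0.00505). All 4 kept their call with the GC and length correction, under which 2 of the 16 rose and 4 fell.

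In the endothelin system 3 of 7 tested genes rose, EDN1 among them, and 2 fell, 71.4% in all against 36.3% of all genes. The receptor gene EDNRA was at 1.65, 1.06 and 1.03 FPKM in vector and 1.37, 1.08 and 1.5 FPKM in FOXK2 libraries, with no call (log2 fold change 0.05, limma adjusted p = 0.833), and EDNRB was not listed. The converting enzyme gene ECE1 fell from 55.2 ± 7.39 to 38.5 ± 0.832 FPKM (SD, n = 3; -0.50 on the log2 scale, limma adjusted p = 0.0242). MME, which encodes neprilysin, a peptidase that degrades endothelin, rose from 0.608 ± 0.241 to 2.54 ± 0.762 FPKM (1.13, adjusted p = 0.00694). GNAQ, a G protein subunit used by endothelin receptors, rose (0.72, adjusted p = 0.0403), and PLCB3, a phospholipase below it, fell (-0.48, adjusted p = 0.0433). After the GC and length correction MME kept its call (0.60, adjusted p = 0.0476), while ECE1, GNAQ and PLCB3 lost theirs (adjusted p = 0.130, 0.266 and 0.346). GNA11, of the same list, became called higher (0.42, limma adjusted p = 0.0229), so that 3 of the 7 rose and 0 fell.

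Of 17 tested FGF ligands, receptors and cofactors 3 rose and 5 fell, 47.1% in all against 36.3% of all genes. Their median was 0.00. FGFR1 and FGFR4 were listed below the filter, at 0, 0.456 and 0 FPKM and at 0.552, 0.446 and 0.567 FPKM in vector cells, and FGFR2 and FGFR3 were not listed. FGFRL1, a receptor without a kinase domain, fell from 69.4 ± 9.64 to 33.2 ± 1.79 FPKM (SD, n = 3; -1.03 on the log2 scale, limma adjusted p = 0.00215). The heparan sulfate carriers SDC4 and GPC1 went opposite ways: SDC4 (syndecan-4) fell from 136 ± 10.6 to 45.4 ± 2.22 FPKM (-1.56, adjusted p = 0.000212), and GPC1 (glypican-1) rose from 0.921 ± 0.334 to 3.21 ± 0.431 FPKM (1.14, adjusted p = 0.00398). FIBP, which encodes an intracellular FGF-binding protein, fell from 64.2 ± 4.24 to 25.1 ± 7.23 FPKM (-1.36, adjusted p = 0.00337). These 4 stayed called with the correction (limma adjusted p from 0.000131 to 0.044).

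Most of the angiopoietin and angiopoietin-like family, including ANGPT1 and ANGPT2, was not listed. The angiopoietin receptor gene TEK and the lipoprotein lipase gene LPL were not listed either. Beside ANGPTL4, LMF1, a factor needed for the maturation of lipoprotein lipase, fell from 6.58 ± 0.231 to 0.126 ± 0.0208 FPKM (SD, n = 3; -2.75 on the log2 scale, limma adjusted p = 4.88e-05). The LMF1 mean in FOXK2 cells lies under 0.5 FPKM, so LMF1 is in the deposited values and the test through the vector group only. ANGPTL2 rose from 1.72 ± 0.219 to 4.41 ± 0.932 FPKM (0.98, adjusted p = 0.0069). Among 13 tested PPAR and lipid response genes, some of which respond to the same fatty acid receptors as ANGPTL4, 1 rose and 2 fell. That is 23.1%, under the 36.3% of all genes, and the median was -0.27. With the GC and length correction 2 of the 13 rose and 4 fell, a larger share than the 30.2% of all genes. The corrected median was -0.24. Of the fatty acid receptor genes, PPARG rose from 6.16 ± 1.49 to 12.2 ± 1.09 FPKM (0.90, limma adjusted p = 0.00907). PPARD, more abundant in both groups, was at 20.7 ± 0.497 and 18.1 ± 1.95 FPKM with no call (-0.19, adjusted p = 0.28), and PPARA was below the filter on low values. RXRB, a partner receptor, fell from 13.7 ± 0.656 to 5.56 ± 1.05 FPKM (-1.17, adjusted p = 0.00246), and CPT1A, the carnitine palmitoyltransferase of fatty acid oxidation, from 21.4 ± 0.411 to 9.38 ± 1.56 FPKM (-1.12, adjusted p = 0.00207).

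Among 14 tested other secreted angiogenic factors 1 rose and 5 fell, 42.9% in all against 36.3% of all genes. Their median was -0.28 (0.03 with the GC and length correction). The member that rose was APLN, which encodes apelin, a peptide ligand of an endothelial receptor, from 2.1 ± 0.208 to 7.22 ± 1.29 FPKM (SD, n = 3; 1.4 on the log2 scale, limma adjusted p = 0.0014). TYMP, thymidine phosphorylase, fell from 50.6 ± 4.00 to 7.91 ± 1.92 FPKM (-2.56, adjusted p = 0.000212). The BMP antagonist gene GREM1 and the progranulin gene GRN fell with log2 fold changes of -1.20 and -1.18 (limma adjusted p = 0.00255 and 0.00425). Of 11 tested secreted angiogenesis inhibitors 3 rose and 4 fell, 63.6% in all against 36.3% of all genes. Their median was -0.25 (0.17 with the correction). THBS1, thrombospondin-1, rose from 5.4 ± 0.163 to 16.8 ± 1.94 FPKM (1.47, limma adjusted p = 0.000681), and VASH1, vasohibin-1, fell from 4.86 ± 0.447 to 1.62 ± 0.547 FPKM (-1.18, adjusted p = 0.00397). SEMA3C and SEMA3F fell with log2 fold changes of -0.97 and -0.83 (limma adjusted p = 0.0199 and 0.00748). Over all 8 lists without the 6 genes, 16 of 80 tested genes rose and 25 fell, 51.2% in all against 36.3% of all genes, with a median of -0.22 against 0.01. With the GC and length correction 15 rose and 22 fell, with a median of -0.03.

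**Figure D4:**
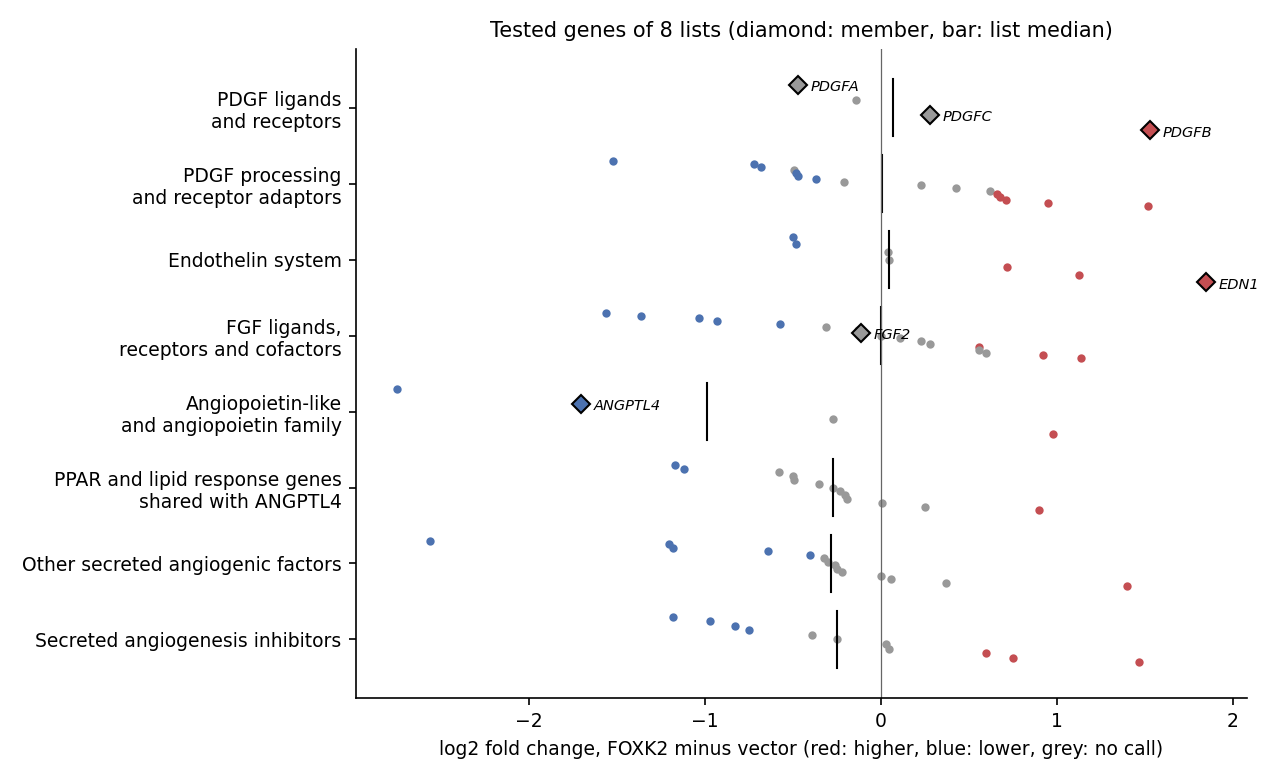
Log2 fold change, FOXK2 minus vector (horizontal axis), of the tested genes of 8 lists (rows); red points were called higher, blue lower and grey not called, diamonds are the 6 genes and bars list medians. PDGFB and EDN1 lie at the right end of their lists, and ANGPTL4 is second to LMF1 at the left end of its list.

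The genes whose pattern over the 6 libraries was most like that of a called gene were found by the root mean square difference of log2(FPKM + 1) values after the vector mean was subtracted, among 10304 other genes. Since they were chosen on these same values, a shared order of libraries is no separate result. For PDGFB they were NCEH1, a cholesterol ester hydrolase, CALCB, a calcitonin gene-related peptide, and CCNB1, cyclin B1, with differences of 0.0947, 0.0957 and 0.107. NCEH1 went from 7.43 ± 1.17 to 21.9 ± 0.882 FPKM (SD, n = 3), and CALCB was listed at 0.329, 0 and 0 FPKM in vector and 2.13, 2.15 and 1.75 FPKM in FOXK2 libraries. With a vector mean under 0.5 FPKM, CALCB is in the deposited values and the test through the FOXK2 group only. For EDN1 they were FAM83D, a spindle protein, SEMA7A, a membrane-anchored semaphorin, and DPYSL3, a cytoskeletal regulator, with differences of 0.136, 0.142 and 0.175. SEMA7A was at 13.0, 10.5 and 9.53 FPKM in vector and 38.2, 47.7 and 31.8 FPKM in FOXK2 libraries. For ANGPTL4 they were TNFSF13, TMEM139 and C16orf58, with differences of 0.183, 0.242 and 0.260. TNFSF13 and TMEM139, with FOXK2 means of 0.346 and 0.468 FPKM, are in the deposited values and the test through the vector group only. C16orf58 was at 9.76, 12.2 and 11 FPKM in vector and 1.95, 6.43 and 2.73 FPKM in FOXK2 libraries. FOXK2 replicate 2 was the highest of its group in these 3 genes, part of the likeness to ANGPTL4 on which they were chosen.

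**Figure D5:**
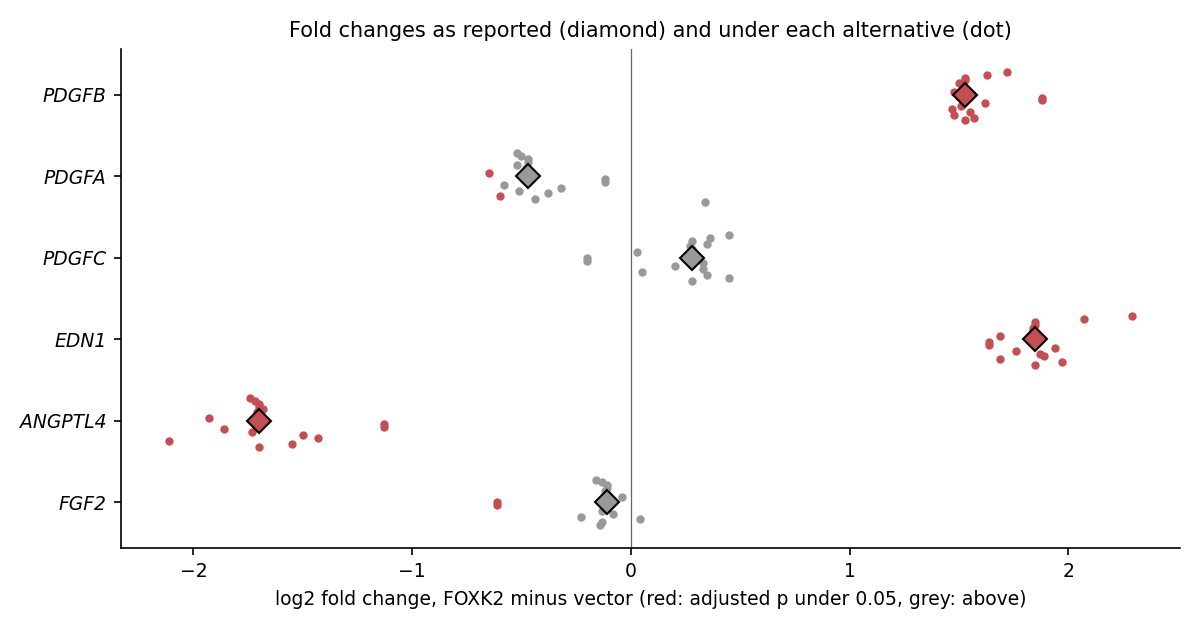
Log2 fold change, FOXK2 minus vector (horizontal axis), of each of the 6 genes (rows) as reported (diamonds) and under each alternative (dots); red marks a limma adjusted p under 0.05 and grey one above. PDGFB, EDN1 and ANGPTL4 stay on 1 side and called throughout, PDGFA ranges from -0.65 to 0.34, and FGF2 reaches -0.61 with the GC and length correction.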

How the data were processed

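The deposited table gives 1 value per transcript and library, taken as FPKM (fragments per kilobase of transcript, scaled to library size) because StringTie is named in the submitters' processing notes, beside cutadapt, HISAT2 2.1.0 and the build hg19. Their settings, and whether strand was used, are not stated in the sources used here. Library sums of 335151 to 395782 lie well below what TPM values would give. Every deposited transcript had a group mean of at least 0.5 FPKM. No counts are in the table, so depth is unknown and no counting interval is given.

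Transcript identifiers were matched to GENCODE 29 for names, GC content and length: 30893 of 31009 matched. Sums over 11359 genes were tested as log2(FPKM + 1) with limma 3.58.1 in R 4.3.3 (intensity trend, group as the only term, two-sided), on the 10305 genes averaging 1 FPKM or more. Benjamini-Hochberg adjusted p-values over all these genes had to lie under 0.05. Transcripts were tested likewise. Fold changes are group differences on the log2(FPKM + 1) scale, which understates changes of low genes. Shares and ratios were compared with exact permutation tests. The fits were tested on simulated data. Alternatives, including a correction of each library's trend on GC content and length (natural splines, 4 degrees of freedom), stand in the closing section.

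The members and lists were chosen with earlier results of these data known. Named genes are the members, their listed receptors and partners, up to 4 called genes of largest change per list, and the 3 genes nearest to each called member. Promoter windows come from RefSeq on GRCh38.p14, coding sequences from GENCODE 29, and no coordinate was moved between builds.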

Additional observations from a re-analysis of the deposited data

How the results depend on the processing

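PDGFB, EDN1 and ANGPTL4 kept their direction and their call in all 18 alternatives each (limma adjusted p up to 0.0051, 0.0138 and 0.0396), with log2 fold changes between 1.47 and 1.88, 1.64 and 2.29, and -2.11 and -1.13. PDGFA was called with limma array weights (-0.65) and without FOXK2 replicate 2, and turned to 0.34, uncalled, with each gene read from its most abundant transcript, which for PDGFA is the short form. Leaving out 1 library at a time gave -0.60 to -0.32 for PDGFA and -0.23 to 0.04 for FGF2. With the GC and length correction, alone and with the replicate block, PDGFC turned to -0.20, uncalled, and FGF2 stood at -0.61 and was called; the cause was not tested. Neither gene has a value at a minimum mean of 5 FPKM. In 4 alternatives 2 members were lower in place of 1. 

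Array weights, whose estimation stopped before convergence, gave 3615 genes higher and 3502 lower, the replicate block with the correction 1140 and 984, and the most abundant transcript 960 and 1183. Without 1 library the counts ran from 845 to 2370 and from 1105 to 2408. Among the other listed pathway genes, 9 were higher at a minimum mean of 5 FPKM, which tests fewer genes, 41 were lower with array weights, and 10 and 11 were higher and lower with the block and correction. Without 1 library they ran from 11 to 20 and from 16 to 27. For transcripts, higher and lower counts were 1831 and 2159 with array weights, 5 and 17 with the replicate block, 7 and 13 with block and correction, and 65 to 898 and 106 to 1256 without 1 library. The cause of these shifts was not tested. The median over all genes stayed within 0.02 of 0 under every alternative.

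Deviations of same-numbered libraries correlated across genes at 0.126, -0.168 and -0.0564, and vector replicate 3 went best with FOXK2 replicate 2 (0.302), so the numbers were not taken as pairs. The replicate block alone changed no member's call. The unknown read depth limits what can be said of PDGFC, EDN1 and FGF2, whose levels in vector cells are the lowest of the 6 genes; the fold of EDN1 rests on its low vector level.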

Other observations

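Midkine (MDK), a heparin-binding growth factor of the list of other secreted angiogenic factors, was singled out after its values were seen. It was lower in FOXK2 cells in the reported fit (220 ± 9.63 to 168 ± 20.9 FPKM, SD, n = 3, log2 fold change -0.40, limma adjusted p = 0.0402) and higher with the GC and length correction (0.32, limma adjusted p = 0.0343). SEMA3A, a secreted repellent semaphorin, also singled out after its values were seen, stood under the filter on low values. It was higher in every FOXK2 library (1.44 ± 0.523 FPKM) than in every vector library (0.238 ± 0.108 FPKM), with a log2 fold change of 0.96 without the filter. Its vector mean lies under 0.5 FPKM, so it is in the deposited values through the FOXK2 group only. Its GC content is 36.7%, in the lowest bin, where 35.1% of genes were called higher and the median was 0.47. No GC-corrected value was computed for SEMA3A. The related SEMA3C and SEMA3F, described above, moved the other way.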
